A study of Mus musculus with 6 samples.

Results

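IGF1, its receptor and the proteins that bind it were followed in gastrocnemius muscle of young and aged mice. The family was taken as 8 genes: the ligand Igf1, the receptor Igf1r and the binding protein genes Igfbp2, Igfbp3, Igfbp4, Igfbp5, Igfbp6 and Igfbp7. They were chosen by name, as every non-control probe whose transcript accession RefSeq gives to one of these genes, which gave 12 probes. Of the 8 genes, 7 had a probe that passed the filter on dim probes and were tested among 20911 genes in all. Igfbp7 was not tested, because its only probe was not well above background on any array.

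IGF1 is a secreted growth factor that liver releases into the blood and that muscle also makes for its own use. It binds IGF1R, a receptor tyrosine kinase on the cell surface, which signals through insulin receptor substrates, PI3 kinase and AKT to protein synthesis and through RAS to MAP kinases. In skeletal muscle this pathway is known for fibre growth and for regeneration by satellite cells. The binding proteins IGFBP2 to IGFBP6 hold IGF1 and IGF2 with high affinity outside the cell and release them when they are cleaved by proteases, whereas IGFBP7 binds them weakly.

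The 3 young mice were 13 weeks old and the 3 aged mice 26 months old. All 6 were male C57BL/6J mice on standard food, and the labels name no transgene or treatment for either group. RNA of the whole gastrocnemius muscle was labelled with Cy3 and put on 1 single-colour Agilent array per mouse. In whole muscle, fewer cells of a type and less RNA per cell cannot be told apart. All 6 arrays lay on 1 slide and were read in 1 scan. Row 1 of the slide held the 3 young arrays and that of aged mouse 1, and row 2 held the arrays of aged mice 2 and 3.

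Levels are log2 signals relative to the 75th percentile of the same array, so that 0 is the signal that 75% of the spots stay below. A level compares mice for 1 probe and does not rank genes against each other, since probes differ in how strongly they bind. All 8 muscle fibre markers were well above background on every array. Between 48.7% and 53.8% of probes were well above background per array. The array of aged mouse 1 had the highest share and also the brightest negative controls, with a net signal of 61.3 against 51.9 to 55.1 on the others. The number of arrays, 3 in each group, limits the precision, and the sources used here do not say which mice shared a cage or were handled together. Over all genes, 52 passed an adjusted p of 0.05 in limma, 40 of them higher and 12 lower in aged mice.

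No gene of the family passed that threshold, against 0.249% of all genes. Of the 7 genes tested, 4 had a higher mean and 3 a lower mean in aged mice, and the median fold change of all genes was -0.08 on the log2 scale. In 4 genes the young and the aged mice did not overlap. Igfbp2 and Igfbp4 were higher in every aged mouse than in every young one, where 7.38% of all genes did the same. Igf1r and Igfbp6 were lower in every aged mouse, where 14.9% of all genes did the same. The same 4 genes had an unadjusted limma p under 0.05, which 5.72% of all genes reached on the higher side and 9.02% on the lower side. Igf1, Igfbp3 and Igfbp5 overlapped between the groups.

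**Figure D1:**
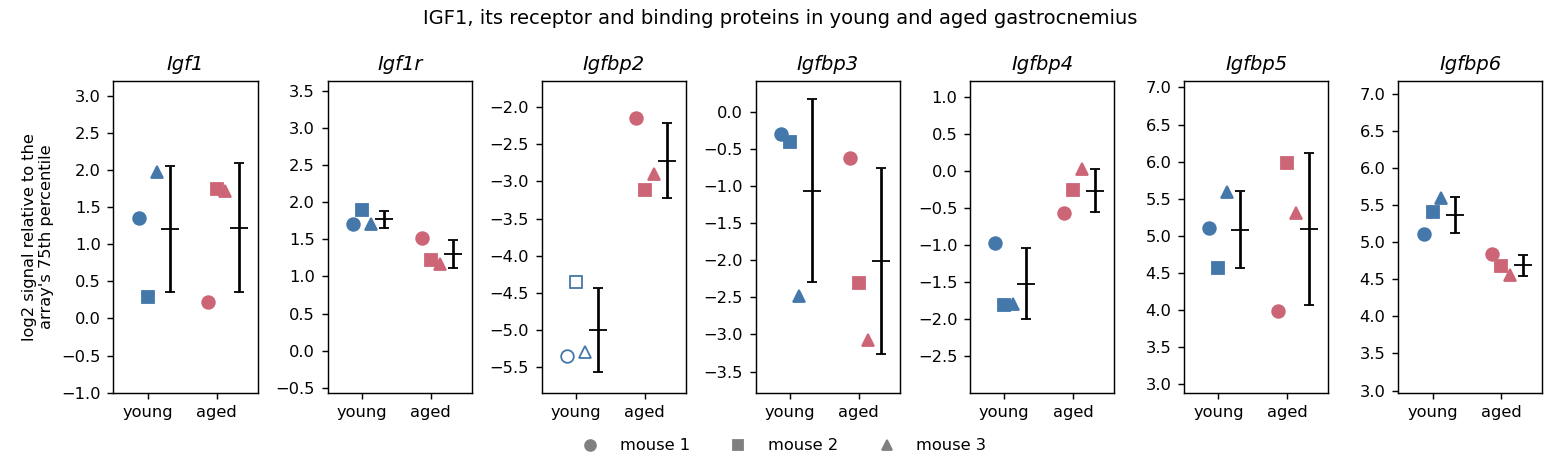
Level of each tested gene of the family in each mouse, as log2 signal relative to the 75th percentile of the array; every panel spans the same number of log2 units. Blue symbols are young and red symbols aged mice, the shape gives the mouse number, black bars are mean and SD of 3 mice, and open symbols are not well above background. The aged mice lie above the young for Igfbp2 and Igfbp4, below them for Igf1r and Igfbp6, and among them for the other genes.

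The bases just before the start site of these 4 genes are printed because they are the members whose groups separated, a pair on the higher and a pair on the lower side. They are the 250 bases upstream of the first RefSeq start site of each gene on GRCm38.p6, all on the plus strand, 5′ to 3′. Capitals mark the GC box, the letters GGGCGG read on either strand, which is a known binding sequence of the factor SP1. The regions are chr1:72824230-72824479 for Igfbp2, chr11:99040994-99041243 for Igfbp4, chr7:67952007-67952256 for Igf1r and chr15:102143936-102144185 for Igfbp6.
Igfbp2: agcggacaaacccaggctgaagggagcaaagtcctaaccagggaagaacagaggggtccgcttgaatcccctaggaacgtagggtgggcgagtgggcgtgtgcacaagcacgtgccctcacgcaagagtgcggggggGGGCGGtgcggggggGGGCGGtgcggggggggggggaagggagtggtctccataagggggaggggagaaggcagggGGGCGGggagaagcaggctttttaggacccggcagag
Igfbp4: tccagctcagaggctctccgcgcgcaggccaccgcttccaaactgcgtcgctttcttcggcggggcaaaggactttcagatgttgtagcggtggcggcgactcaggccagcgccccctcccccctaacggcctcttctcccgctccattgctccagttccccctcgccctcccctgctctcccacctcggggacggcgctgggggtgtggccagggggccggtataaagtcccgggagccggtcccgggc
Igf1r: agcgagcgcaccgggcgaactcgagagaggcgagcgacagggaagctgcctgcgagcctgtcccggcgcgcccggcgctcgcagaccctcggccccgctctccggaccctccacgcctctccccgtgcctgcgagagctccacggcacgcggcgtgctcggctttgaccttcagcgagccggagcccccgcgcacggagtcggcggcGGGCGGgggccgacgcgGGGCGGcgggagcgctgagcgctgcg
Igfbp6: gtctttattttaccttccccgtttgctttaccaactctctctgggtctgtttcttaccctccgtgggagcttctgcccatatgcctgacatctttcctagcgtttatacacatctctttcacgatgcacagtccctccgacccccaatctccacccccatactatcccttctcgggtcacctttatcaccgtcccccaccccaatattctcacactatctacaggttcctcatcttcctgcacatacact

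All 8 genes of the family had an entry among the 32851 RefSeq promoters, and Igfbp2 had 2, which makes 9 promoters. A GC box stood in 32.7% of all promoters. The Igfbp2 promoter printed above held 3, which begin 113, 98 and 37 bases before the start site, and the Igf1r promoter held 2, at 43 and 26 bases. The promoters of Igfbp4 and Igfbp6 held none. Igfbp4 had the letters TATAAA 28 bases before its start site, the distance at which a TATA box usually lies, and 12.4% of all promoters held these letters anywhere in the window, on either strand. Igfbp6 had TATAAA at 148 bases, on the opposite strand, and CCAAT at 107 and 50 bases, and 33.8% of all promoters held CCAAT. The share of G and C was 67.2% in Igfbp2, 69.2% in Igfbp4 and 77.6% in Igf1r, above the median of 52.4% over all promoters, and 49.6% in Igfbp6. Neither the GC box nor the share of G and C divided the higher from the lower genes. These are matches of letters, and no binding was measured.

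Igf1, the ligand, showed no difference in mean between young and aged muscle and differed widely from mouse to mouse. Its brightest probe, A_55_P2085974, gave 1.35, 0.29 and 1.97 in young mice 1, 2 and 3. It gave 0.22, 1.74 and 1.71 in aged mice 1, 2 and 3. Each group therefore held 1 mouse with a low level, young mouse 2 and aged mouse 1, and the other 4 mice were higher. Young mice averaged 1.21 ± 0.85 and aged mice 1.23 ± 0.87 (SD, n = 3). The log2 fold change was 0.02 with a standard error of 0.55 and a 95% interval of -1.29 to 1.33 (limma, adjusted p = 0.989). This interval takes in a halving as well as a doubling of the level. The residual SD of Igf1 was larger than that of 95.4% of the genes tested.

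The array carried 4 probes for Igf1, each spotted in duplicate, and all 4 were well above background on every array. These are the probes matched through RefSeq, and 1 further probe, which may belong to Igf1 but whose accession was not in the RefSeq table, was not used. In all 4 probes aged mouse 1 lay below the other 2 aged mice and young mouse 2 below the other 2 young mice. The differences of the means, aged minus young, were -0.29, 0.10, 0.02 and -0.18 on the log2 scale, with no p under the threshold in the limma fit over probes. Across the 6 arrays the probes correlated pairwise with Pearson r from 0.757 to 0.955, as a description. The duplicate spots of a probe differed by a median of 0.088 on the log2 scale over 24 pairs, with a largest difference of 0.73 for 1 pair. The low level in these 2 mice was thus read from several spots and several probes of the same RNA.

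**Figure D2:**
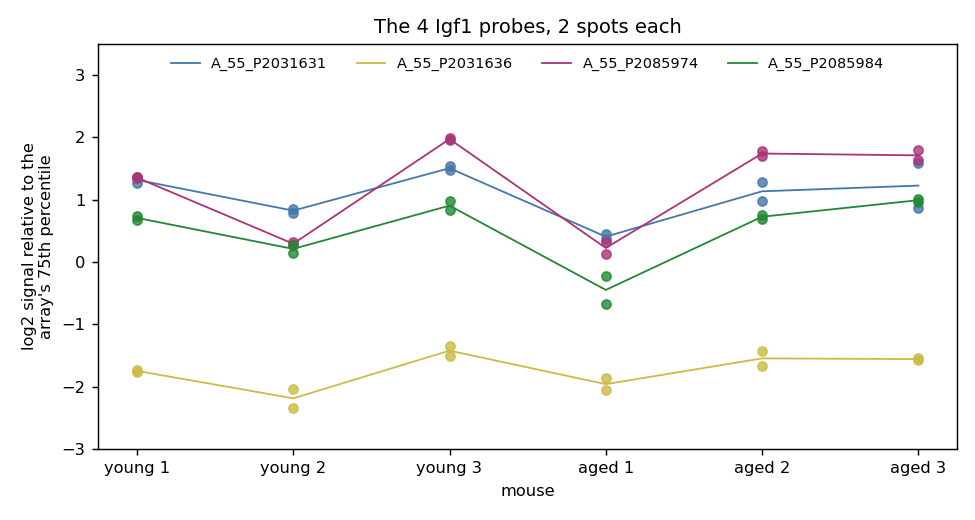
The 4 Igf1 probes on the 6 arrays, as log2 signal relative to the 75th percentile of the array. Dots are the 2 spots of a probe, lines join the mean of the spots and serve only to follow a probe from array to array. Every probe dips in young mouse 2 and in aged mouse 1, although the probes differ in brightness.

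Igf1r, which encodes the receptor, was lower in aged mice by a modest amount. The level was 1.70, 1.90 and 1.70 in young mice 1, 2 and 3 and 1.52, 1.21 and 1.17 in aged mice 1, 2 and 3. Every aged mouse lay below every young mouse, with aged mouse 1 the nearest to them. Young mice averaged 1.77 ± 0.11 and aged mice 1.30 ± 0.19 (SD, n = 3). Aged muscle held 0.724 times the young signal, a log2 fold change of -0.47 with a standard error of 0.17 (95% interval -0.87 to -0.06). The unadjusted limma p was 0.0305 and the adjusted p 0.294. A block for slide row, in which only aged mouse 1 is set against young mice, gave a log2 fold change of -0.25.

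Igfbp2 had the largest measured difference of the family, though not after normexp background correction, where Igfbp4 differed more (0.89 against 0.59 on the log2 scale). IGFBP2 is a secreted binding protein that is abundant in blood plasma and made by many tissues. Its probe A_55_P2056729 gave processed signals of 8.69, 14.8 and 6.20 in young mice 1, 2 and 3 and of 83.2, 39.5 and 43.0 in aged mice 1, 2 and 3. On the log2 scale relative to the 75th percentile these were -5.35, -4.35 and -5.30 in young and -2.14, -3.11 and -2.90 in aged mice. The probe was well above background in 0 of 3 young and in 3 of 3 aged mice, and the lowest aged mouse was above the highest young one. The measured means were -5.00 ± 0.56 (young) and -2.72 ± 0.51 (aged; SD, n = 3).

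The young signal was not well above background, so the aged mean was also set against a floor, and it lay 4.69-fold above this floor. The measured difference had an adjusted limma p of 0.0802. The floor is the mean, over young arrays, of the probe's own signal or the lowest signal called well above background, whichever was higher. Probes above that lowest signal can miss the call, so the floor is no detection limit and 4.69 is no lower bound. Igfbp2 passed the filter through the aged mice alone, so it had to differ, and neither its place among the genes without overlap nor its p is support for a difference. The second Igfbp2 probe, A_66_P135391, gave -6.33, -5.24 and -6.00 in young mice 1, 2 and 3 and -2.15, -3.08 and -2.59 in aged mice 1, 2 and 3. It too was well above background in 0 of 3 young and 3 of 3 aged mice. On this probe the aged mean lay 6.48-fold above its floor. The probe's adjusted p over all kept probes was 0.0280 in limma, with the same limit from the filter. The measured means of this probe were -5.86 ± 0.56 (young) and -2.60 ± 0.46 (aged, SD, n = 3). With the mean of both probes the adjusted limma p was 0.0461, under the same limit. The normexp setting adds a constant to every signal and so compresses dim probes, and the adjusted p of Igfbp2 was 0.194 there.

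Igfbp7, the low-affinity binding protein that is common in blood vessels, could not be followed. The array's probe A_55_P2018611, of transcript NM_001159518, gave -4.76, -4.75 and -4.55 in young mice 1, 2 and 3 and -4.37, -5.04 and -4.29 in aged mice 1, 2 and 3. It was well above background in 0 of 3 young and 0 of 3 aged mice, so these values give no order. No probe was listed for the other RefSeq transcript of the gene, so the low signal says nothing about that transcript.

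**Figure D3:**
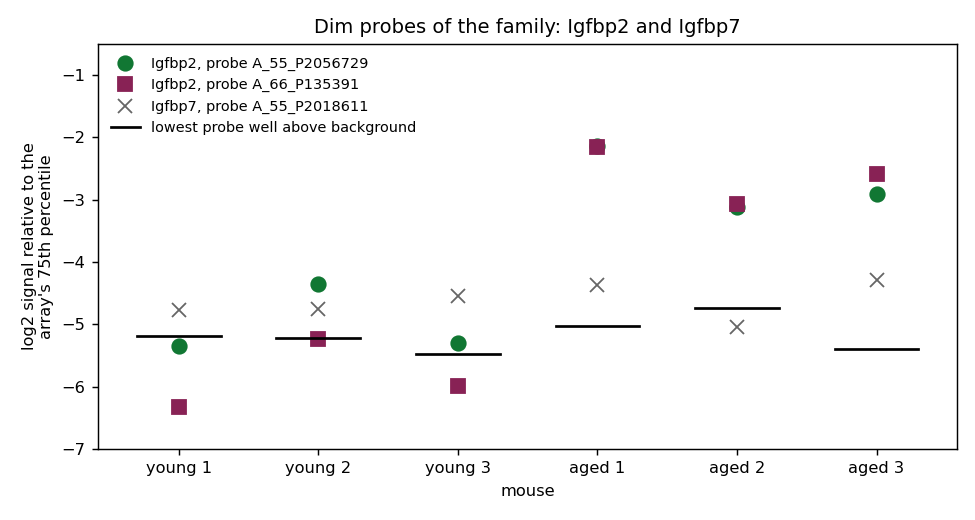
The 2 Igfbp2 probes and the Igfbp7 probe on each array, as log2 signal relative to the 75th percentile, with a black line at the lowest signal of any probe called well above background on that array. Both Igfbp2 probes stand clear of the line in the 3 aged mice. In the young mice A_66_P135391 lies below it and A_55_P2056729 on either side of it; a probe can lie above the line and still miss the call, which also uses the scatter around the spot, as Igfbp7 does on 5 arrays.

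Igfbp4 was the other binding protein gene that was higher in aged mice. IGFBP4 is known as an inhibitor of IGF action that is cleaved by pappalysin proteases. The level was -0.97, -1.80 and -1.80 in young mice 1, 2 and 3 and -0.56, -0.26 and 0.02 in aged mice 1, 2 and 3. The groups did not overlap, and young mouse 1 came nearest to the aged mice. Under median scaling the groups did overlap, with young mouse 1 above aged mouse 1. Young mice averaged -1.52 ± 0.48 and aged mice -0.27 ± 0.29 (SD, n = 3), which is 2.39-fold higher in aged muscle. The log2 fold change was 1.26 with a standard error of 0.29 (95% interval 0.58 to 1.93), an unadjusted limma p of 0.00328 and an adjusted p of 0.151. The probe was well above background on all arrays.

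Igfbp6 was lower in every aged mouse. IGFBP6 binds IGF2 in preference to IGF1 and is made by fibroblasts. The level was 5.10, 5.41 and 5.59 in young mice 1, 2 and 3 and 4.84, 4.67 and 4.55 in aged mice 1, 2 and 3. The groups did not overlap, and within each group the mice lay close together. Young mice averaged 5.37 ± 0.25 and aged mice 4.69 ± 0.14 (SD, n = 3). Aged muscle held 0.624 times the young signal, a log2 fold change of -0.68 with a standard error of 0.19 (95% interval -1.13 to -0.23). The unadjusted limma p was 0.00896 and the adjusted p 0.205.

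Igfbp5 and Igfbp3 overlapped between the groups, each for 1 or 2 mice that stood away from the rest. IGFBP5 is the binding protein best known from muscle differentiation. Its level was 5.10, 4.56 and 5.59 in young mice 1, 2 and 3 and 3.98, 5.99 and 5.31 in aged mice 1, 2 and 3. Aged mice held both the lowest and the highest value, and the means were 5.08 ± 0.51 and 5.09 ± 1.02 (SD, n = 3). The log2 fold change was 0.01 with a 95% interval of -1.23 to 1.25 (limma, adjusted p = 0.996). Igfbp5 lies next to Igfbp2 on chromosome 1 in the RefSeq annotation of GRCm38.p6, on the opposite strand. The difference of the means was 0.01 for Igfbp5 on the log2 scale. For Igfbp2 it was 2.23 against the floor for its young mice.

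IGFBP3 is the main carrier of IGF1 in blood. The Igfbp3 level was -0.30, -0.41 and -2.48 in young mice 1, 2 and 3 and -0.63, -2.31 and -3.08 in aged mice 1, 2 and 3. Young mouse 3 was low and aged mouse 1 high within its group, so the groups overlapped. Young mice averaged -1.06 ± 1.23 and aged mice -2.01 ± 1.25 (SD, n = 3), with a log2 fold change of -0.94 and a 95% interval of -2.81 to 0.92 (limma, adjusted p = 0.599). The residual SD of Igfbp3 was larger than that of 98.7% of the genes tested. A block for slide row turned the log2 fold change to 0.43. It was -0.41 without aged mouse 3, -0.56 and -0.62 without young mice 1 and 2, -1.63 without aged mouse 1 and -1.65 without young mouse 3.

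Igf1 and Igfbp5 followed each other across the 6 mice. Young mouse 2 and aged mouse 1 were the lowest mice of their groups in both genes. Pearson r was 0.917 (exact permutation p = 0.00972, 0.0292 after Benjamini-Hochberg adjustment over 3 pairs) and Spearman's rho was 0.943 (exact permutation p = 0.0167, adjusted 0.05). Without young mouse 2 and aged mouse 1 the r was 0.612, so the relation rests largely on these 2 mice. The pairs tested were those among the 3 genes whose groups overlapped, a choice made after their values had been seen. The adjustment covers the 3 pairs and not this choice, so its p is no support for a link. Over all genes tested, the deviations of young mouse 2 and aged mouse 1 from their group means also correlated (r = 0.350). Igf1 and Igfbp3 gave r = -0.776 (exact permutation p = 0.0792, adjusted 0.119; rho -0.60, p = 0.242, adjusted 0.297), and r = -0.805 without the same 2 mice. Igfbp3 and Igfbp5 gave r = -0.698 (exact permutation p = 0.151, adjusted 0.151; rho -0.54, p = 0.297, adjusted 0.297), and r = -0.913 without young mouse 1 and aged mouse 3. Within row 1 of the slide, which held 4 arrays, r was 0.951 for Igf1 and Igfbp5, -0.720 for Igf1 and Igfbp3 and -0.657 for Igfbp3 and Igfbp5, as a description, and row 2 held only 2 arrays.

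The genes whose pattern over the 6 arrays was most like that of each member were taken among 12685 candidates, 3 for each member by Pearson r, as a description. For Igfbp2 they were Snap47, Slc23a3 and Hpgd (r from 0.990 to 0.994). Hpgd, which encodes the enzyme that inactivates prostaglandins, passed the threshold on its own with a log2 fold change of 3.40 (limma, adjusted p = 0.0343). For Igfbp4 they were Csf2ra, Leprotl1 and Adgre1 (r from 0.989 to 0.994), and Adgre1 is a marker gene of macrophages. For Igfbp6 they were Fkbp8, Dlx3 and Zcchc3, and for Igf1r Ankrd37, Unc13b and Asap2. For Igf1 they were Hmgb1, Zbed4 and Sec61b, for Igfbp5 Pex26, Uchl4 and Hps5, and for Igfbp3 Scn2b, Wdr45 and Eva1c. These genes were picked for the highest r among all candidates, so the size of r is no evidence of a link.

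**Figure D4:**
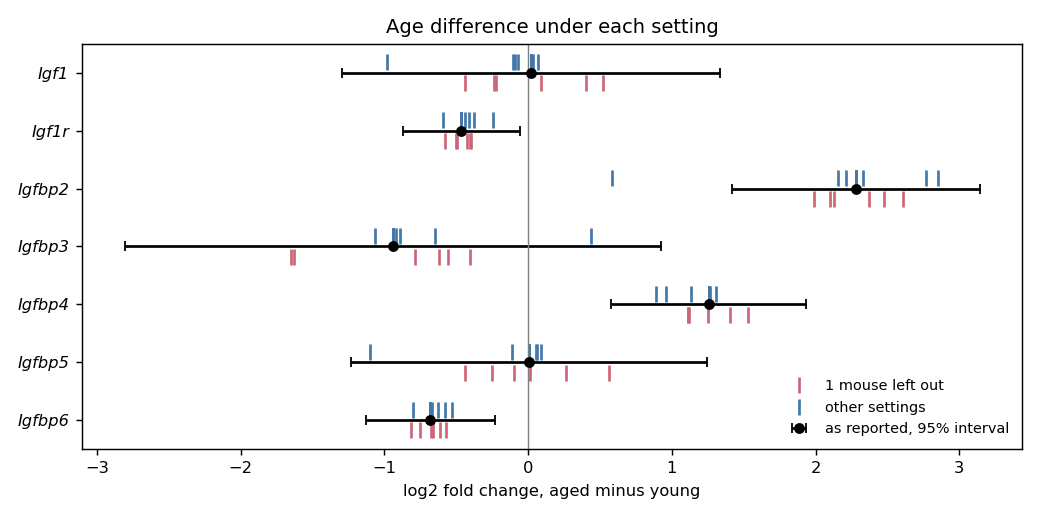
Log2 fold change, aged minus young, of each tested gene of the family. Black dots and bars are the reported value and its 95% interval from limma, blue ticks the value under another background correction, scaling, filter, probe rule, variance model or block, and red ticks the value with 1 mouse left out. Igfbp2 and Igfbp4 stay above 0 and Igf1r and Igfbp6 below 0 at every tick, while the ticks of Igf1, Igfbp3 and Igfbp5 lie on both sides.

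Other genes that bind IGFs or release them from binding proteins showed no shared direction. Of 13 such genes, 8 were tested, and 5 were higher, 3 lower and 0 past the adjusted threshold (0 also at an unadjusted limma p under 0.05), with a median log2 fold change of 0.17. Those with the largest differences among the well detected were Htra1 (0.28), a protease that cleaves IGFBP5, Igf2 (0.28), the other ligand, Stc2 (0.26), an inhibitor of pappalysins, and the insulin receptor gene Insr (-0.21), whose protein can pair with IGF1R. The lowest adjusted limma p among these 4 was 0.711. Pappa2, which encodes a protease of IGFBP3 and IGFBP5 and is named after its values were seen, gave -3.95, -4.00 and -4.90 in young mice 1, 2 and 3 and -2.62, -3.68 and -3.77 in aged mice 1, 2 and 3. Its groups did not overlap, but it was well above background in only 1 of 3 young mice (3 of 3 aged), and the log2 fold change of 0.93 had an adjusted p of 0.345. Igfbp1, Igfals, Igfbpl1, Stc1 and Insrr did not pass the filter on dim probes.

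Growth hormone induces Igf1 through its receptor, JAK2 and STAT5. Of the 10 genes of this axis 4 had a higher and 6 a lower mean in aged muscle, 0 passed the adjusted threshold, and the median log2 fold change was -0.26 against -0.08 for all genes. In 4 of them the aged mice all lay below the young ones (14.9% of all genes) and in 1 all above (7.38% of all genes). The same 5 genes had an unadjusted limma p under 0.05, which 9.02% of all genes reached on the lower and 5.72% on the higher side. The receptor gene Ghr was 4.25, 4.07 and 4.64 in young mice 1, 2 and 3 and 3.59, 3.92 and 3.32 in aged mice 1, 2 and 3. Its log2 fold change was -0.71 ± 0.23 (SE; limma, adjusted p = 0.258). It was -0.56 for Jak2 (adjusted p = 0.310) and -0.51 for Stat5b (adjusted p = 0.310). Stat5a, the other STAT5 gene, was 1.11, 1.51 and 1.55 in young mice 1, 2 and 3 and 1.81, 2.01 and 2.17 in aged mice 1, 2 and 3, a log2 fold change of 0.61 (adjusted p = 0.249). Ghr, Jak2, Stat5b and Stat5a are named after their values were seen. Socs2, a STAT5 target that restrains growth hormone signalling, was 2.13, 1.63 and 1.69 in young mice 1, 2 and 3 and 0.77, 1.49 and 0.58 in aged mice 1, 2 and 3, a log2 fold change of -0.87 ± 0.28 (SE; adjusted p = 0.253). Among related suppressors, Cish (-1.00, adjusted p = 0.596), Socs3 (1.49, adjusted p = 0.406) and Socs1 (0.72, adjusted p = 0.716) overlapped between the groups. With 1 mouse left out, Cish ran from -1.93 to -0.20 (lowest without aged mouse 2, highest without aged mouse 1) and Socs3 from 0.60 (without aged mouse 3) to 2.04. Igf1 itself, the target of the axis, differed by 0.02.

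Downstream of the receptor, 30 genes from insulin receptor substrates to mTOR and MAP kinases were all tested. Of these, 12 had a higher and 18 a lower mean in aged muscle, 0 passed the adjusted threshold, and the median log2 fold change was -0.05. An unadjusted limma p under 0.05 was reached by 4 lower genes (9.02% of all genes) and 1 higher gene (5.72% of all genes). The largest difference was in Grb14, an adaptor that inhibits the insulin receptor, with -1.54, -2.50 and -3.07 in young mice 1, 2 and 3 and -2.30, 1.02 and 0.93 in aged mice 1, 2 and 3. Aged mice 2 and 3 were far above every young mouse and aged mouse 1 lay among them, and the log2 fold change of 2.26 had an adjusted p of 0.325. Without aged mouse 1 it was 3.35, with an adjusted p of 0.0386, and with the other mice left out in turn it was 1.69 to 2.67. A block for slide row gave 0.075 (adjusted p = 0.968). Gsk3b, which encodes a kinase that restrains glycogen synthesis and is named after its values were seen, was lower in every aged mouse (-0.73, adjusted p = 0.285). Pik3ca, the catalytic subunit of PI3 kinase, was higher in every aged mouse (0.80, adjusted p = 0.377).

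The CCN proteins and a few others share the amino-terminal domain of the IGFBPs but are not high-affinity IGF carriers. Of 8 such genes 2 had a higher and 6 a lower mean in aged muscle, 0 passed the adjusted threshold, and the median log2 fold change was -0.72. An unadjusted limma p under 0.05 was reached by 2 lower genes (9.02% of all genes) and 0 higher genes (5.72% of all genes). Ccn2, a matrix protein gene also known as connective tissue growth factor, was 3.97, 4.11 and 3.34 in young mice 1, 2 and 3 and 3.25, 1.55 and 1.01 in aged mice 1, 2 and 3. The groups did not overlap, though aged mouse 1 came close to young mouse 3, and the log2 fold change was -1.87 (limma, adjusted p = 0.229), or -2.53 without aged mouse 1 (adjusted p = 0.0314) and -1.41 to -2.11 with each of the others left out. A block for slide row gave -0.56 for Ccn2 (adjusted p = 0.580). Ccn3, named after its values were seen, was also lower in every aged mouse (-1.77, adjusted p = 0.196), but it was well above background in only 2 of 3 aged mice, and the row block gave -0.94. Esm1 (-0.83, adjusted p = 0.567), Kazald1 (-0.61, adjusted p = 0.552) and Ccn5 (0.58, adjusted p = 0.416) overlapped, and Esm1 was -1.63 without aged mouse 1 (adjusted p = 0.0279), -0.37 to -0.90 with each of the others left out and 0.78 with the row block.

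**Figure D5:**
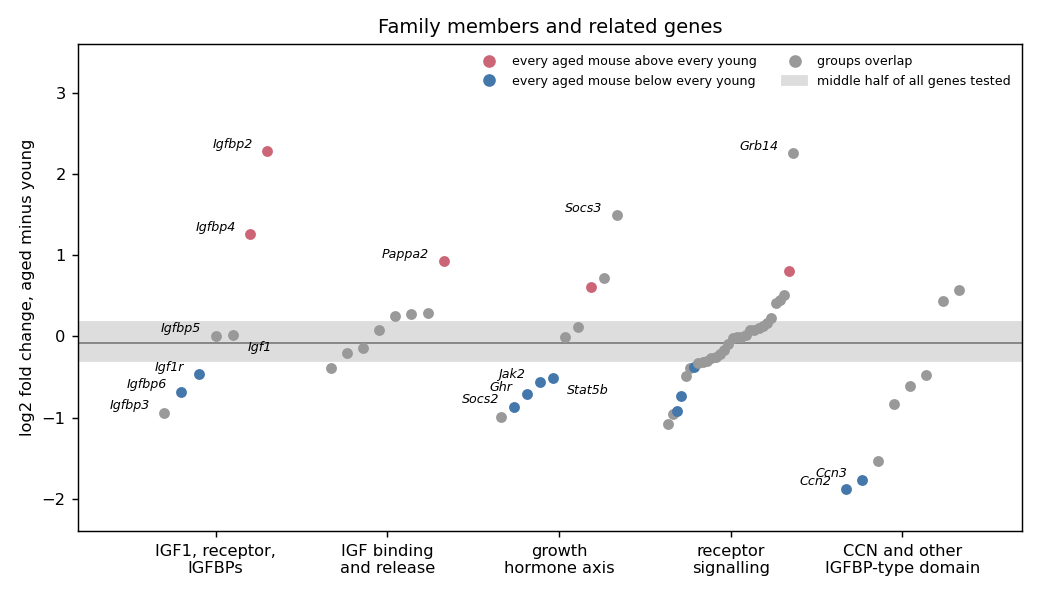
Log2 fold change, aged minus young, of the family and of 4 lists of related genes, 1 dot per gene, ordered by value within a list. Red dots are genes with every aged mouse above every young one, blue dots the reverse, grey dots overlap, the grey line is the median of all genes (-0.08) and the band runs from their 25th to their 75th percentile (-0.30 to 0.18). Igfbp2 and Igfbp4 are the only red dots of the family, and the growth hormone axis holds 4 blue dots.

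Sums of the marker levels of several cell types, in linear signal relative to the 75th percentile, are given beside the family. The brightest probe leads a sum (Dcn for fibroblasts, Egfl7 for endothelium, Csf1r for macrophages), so a sum does not measure a cell type. Egfl7 and Csf1r overlapped between the groups, and Dcn was lower in every aged mouse. Of 8 fibroblast markers, 7 had a lower mean in aged mice and 0 passed the adjusted threshold. An unadjusted limma p under 0.05 on the lower side was reached by 3 of them, against 9.02% of all genes. The sum was 395 to 446 in young and 185 to 300.2 in aged mice, with Col1a2 at -1.56 (adjusted p = 0.158). Endothelial markers summed to 67.3 to 98.2 in young and 49.2 to 64.0 in aged mice (5 of 8 lower), and mural cell markers to 64.1 to 69.5 and 47.7 to 54.9 (7 of 8 lower). Igfbp6 and Igf1r were lower in the same mice. Of 7 macrophage markers tested 6 were higher, beside Igfbp4. The sums of the 7 were 16.5 to 18.1 in young and 17.9 to 23.1 in aged mice. Cd68 was at 1.07 (adjusted p = 0.180) and Adgre1 at 0.62 (adjusted p = 0.235). Fcgr1, among the 6 higher, was well above background in 0 of 3 young and 3 of 3 aged mice. It passed the filter through the aged mice alone, so its direction is no support for a difference. Markers of denervated fibres summed to 12.8 to 14.5 in young and 35.6 to 87.5 in aged mice, beside Igfbp2 and Igfbp4. Of 8 such markers 7 were higher, all 7 at an unadjusted limma p under 0.05 (5.72% of all genes). The other 1 was lower at such a p (9.02% of all genes), and 0 passed the adjusted threshold. Chrng, among the 7 higher, was well above background in 0 of 3 young and 3 of 3 aged mice. It passed the filter through the aged mice alone, so its place in this count is no support for a difference. Runx1 was at 2.74 (adjusted p = 0.067) and Myog at 2.45 (adjusted p = 0.148). Schwann cell markers overlapped in sum (20.9 to 38.4 against 20.8 to 35.0), and 1 of them passed the threshold, Prx at -1.31 (adjusted p = 0.0419).

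Adipocyte markers were lower in 5 of 6 genes tested (sums of 123 to 132 in young and 93.4 to 124 in aged mice). Satellite cell markers were higher in 3 of 4 (12.9 to 13.4 and 13.6 to 15.2). In both lists 0 genes had an unadjusted limma p under 0.05, and each satellite cell marker overlapped between the groups. The brightest probe, of Cdh15 (log2 fold change 0.08), led the satellite cell sum, and Pax7, the 1 lower marker, was at -0.04. Of 4 liver markers only 1 could be tested, and Alb, Apoa1 and Ttr were well above background on at most 1 array. The part of these cell types in the differences of the family was not tested.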

How the data were processed

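The authors hybridised Cy3-labelled RNA of each gastrocnemius muscle to 1 Agilent array and deposited the Feature Extraction output, whose processed signal is an intensity on a linear scale with the background subtracted within the array and no scaling between arrays. The file headers give version 11.0.1.1 of Feature Extraction and the submitters' processing notes 9.5. The deposited series matrix held the same intensities (largest difference 0). No normalization or test for the arrays is given in the sources used here.

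Of 62976 spots per array, 59305 were not controls, of which 161 to 212 flagged as outliers were left out and 0 were saturated. The log2 processed signals of spots of a probe were averaged and the array's 75th percentile subtracted. Accessions were matched without version to RefSeq transcripts of GRCm38.p6, which named 28331 of 55681 probes; the design's coordinates are on another build and are not given. Probes well above background on at least 3 of 6 arrays were kept, and the brightest kept probe stood for a gene. The age groups were fitted by lmFit and eBayes of limma 3.58.1 (R 4.3.3) on age alone; p-values were adjusted by Benjamini-Hochberg over 20911 genes, and 0.05 was the threshold. This fit was tested on simulated data. The 6 arrays came from 6 mice, with groups from the sample titles.

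The family, the gene lists and the alternatives were chosen with earlier results of these data known. From each list the text names up to 4 genes with the largest absolute log2 fold change among those well above background on all 6 arrays, and any past the threshold; genes named otherwise are marked, and some genes of the receptor signalling list are not reported here by name. The pattern of a member was compared with genes that had a symbol and were well above background on all arrays. The alternatives were normexp (offset 50) on the median spot signal, quantile, median and detected-probe scaling, other filters, the mean of the probes of a gene, saturated probes, the series matrix, a mean-variance trend, blocks for slide row or replicate number, and each mouse left out.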

Additional observations from a re-analysis of the deposited data

How the results depend on the processing

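Over 18 alternatives (17 for Igfbp2, which was not tested when a probe had to be above background on all 6 arrays), the log2 fold change ran from 0.59 to 2.86 for Igfbp2, from 0.89 to 1.53 for Igfbp4, from -0.81 to -0.53 for Igfbp6 and from -0.59 to -0.25 for Igf1r. The values of Igfbp2 are measured differences against a young level that was not well above background. It passed the threshold under 1 alternative, the average of its probes (2.77, adjusted p = 0.0461), as the 1 gene of the family to do so, but it was kept through the aged mice alone, so this is no support for a difference. Adjusted p otherwise stayed above 0.05, as low as 0.105 for Igfbp4, 0.146 for Igfbp6 and 0.170 for Igf1r.

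Igf1 turned negative under normexp (-0.070), median scaling (-0.10), the mean of its probes (-0.091) and the row block (-0.98), and without young mouse 2 (-0.44), aged mouse 2 (-0.24) or aged mouse 3 (-0.22), with a range of -0.44 to 0.52 over the mice left out. Igfbp5 did so under median scaling (-0.12) and the row block (-1.10), and without young mouse 2 (-0.25), aged mouse 2 (-0.44) or aged mouse 3 (-0.099), with a range of -0.44 to 0.56. Igfbp3 turned positive with the row block (0.43). Members with a higher mean numbered 2 under median scaling, which moved the median of all genes from -0.08 to -0.20, and 2 to 4 with 1 mouse left out. Members without overlap numbered 4 to 5 with 1 mouse left out, 3 under normexp, and 3 under median scaling, where Igfbp4 overlapped. They also numbered 3 with probes above background on all 6 arrays, where Igfbp2 was not tested. The share of all genes without overlap was not counted under these alternatives, and groups with fewer mice separate more easily. These counts are therefore no result about the family. Where Igfbp2 was tested, it had been kept through the aged mice alone. Among related genes, the row block gave -0.53 for Htra1, 0.26 for Insr, -0.94 for Socs1 and 0.78 for Esm1. With 1 mouse left out, Igf2 ran from -0.0050 (without aged mouse 1) to 0.52, Stc2 from -0.43 (without aged mouse 1; -0.019 without young mouse 3) to 0.64, Insr from -0.44 (without aged mouse 1) to 0.010 (without aged mouse 2) and Socs1 from -0.0071 (without young mouse 2) to 1.55. Prx kept its direction and lost the threshold under 9 alternatives. The cause was not tested. Row and age cannot be told apart beyond aged mouse 1, the only aged array in row 1.

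Genes past the threshold numbered 8 with no filter on dim probes (36710 tested), 32 with probes above background on all 6 arrays (18558 tested), and 1 to 194 with 1 mouse left out, the lowest without aged mouse 3 and the highest without aged mouse 1, against 52; without the other 4 mice they numbered 8 to 10. Of the 52, 76.9% were higher, against 62.9% of 62 with normexp, 64.1% of 39 with median scaling and 51.2% of 43 with the row block. Young and aged mice with the same replicate number did not deviate together over all genes (r = -0.063, -0.271 and 0.028). These values show no pairing by number and cannot exclude one. The largest r of a young with an aged mouse was 0.350, for young mouse 2 and aged mouse 1. Both were also the lowest mice of their groups in Igf1 and Igfbp5. With the replicate block 5 genes passed the threshold and no gene of the family did. Signal over background limits Igfbp2 in young mice and Igfbp7 in all.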

Other observations

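Beside the family, 1 liver gene was measured at a higher level in aged muscle. Serpina1a, which encodes an alpha-1 antitrypsin and is named after its values were seen, gave -3.94, -2.20 and -5.25 in young mice 1, 2 and 3 and -2.17, 0.55 and -0.39 in aged mice 1, 2 and 3. Every aged mouse was above every young one, by a small margin for aged mouse 1, and the log2 fold change was 3.13 (limma, adjusted p = 0.224). The probe was well above background in only 2 of 3 young mice (3 of 3 aged), which limits this value. The mouse genome holds several near-identical copies of this gene, so the probe may read more than 1 of them. Igfbp2, another gene of secreted plasma proteins, was highest in aged mouse 1 and Serpina1a in aged mouse 2.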
